A study of Mus musculus with 2 samples.

Results

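Hair placode cells were taken here as the mouse skin epithelial cells that carried RNA of *Dkk4* or *Fgf20*, the secreted factors that mark the placode. Among cells with at least 1800 detected genes, those with 2 or more unique molecules (UMIs) of *Dkk4* and *Fgf20* together were kept where *Krt1* and *Krt10*, the keratins of differentiating suprabasal cells, summed to under 30 UMIs per 10000 UMIs of the cell. The rule found 343 of 8024 cells. The cells were selected on these measured values, so the levels of *Dkk4*, *Fgf20*, *Krt1* and *Krt10* are given as a description only.

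The cells came from back skin of C57BL/6 embryos at embryonic day 17. The Ctrl embryos were *Mettl3* fl/+ and the cKO embryos *Mettl3* fl/fl, and both groups also carried Rosa16-YFP fl/+ and K14Cre. METTL3 is the catalytic subunit of the complex that writes N6-methyladenosine (m6A) on mRNA, and K14Cre recombines in epithelial progenitors of the skin, so the dermis of a cKO embryo keeps the gene. YFP-positive cells were sorted with a further gate on surface integrins that enriched progenitors, so shares of cells below are shares of this sorted pool. From it 1 library per genotype was made with a 3′-end, UMI-based droplet kit. How many embryos went into a library is not given in the sources used here. With 1 library per genotype, differences between cKO and Ctrl could not be tested, and all intervals below are 95% intervals that cover counting error only and leave out the spread between embryos. The study compared these libraries to ask how the loss of *Mettl3* changed the skin epithelium and its hair follicle lineage.

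A hair placode is a local thickening of the embryonic epidermis from which a follicle grows. WNT/β-catenin signalling in the epithelium starts it, and signalling from ectodysplasin through its receptor EDAR and NF-kB maintains and refines it. Placode cells then send signals of their own: FGF20 organises the dermal condensate beneath, SHH drives the downgrowth of the epithelium, and BMP2, DKK4 and other secreted inhibitors shape the spacing of placodes. DKK4 is an inhibitor of WNT signalling that is itself a target of WNT and EDAR signalling.

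The genes with the highest placode to basal ratios included *Sp5* and *Ascl4*. SP5 is a transcription factor known as a direct target of β-catenin, and ASCL4 is a basic helix-loop-helix factor. Their promoters are shown because they held the most matches to CTTTGA, the core letters bound by LEF/TCF factors, among the promoters of the 15 genes with the highest placode to basal ratio. The windows are the 250 bases before the RefSeq start on GRCm38.p6, at chr2:70474673-70474922 on the plus strand for *Sp5* and chr10:85927152-85927401 on the plus strand for *Ascl4*. Capitals mark CTTTGA or, where the match lies on the minus strand, its reverse complement TCAAAG.
Sp5: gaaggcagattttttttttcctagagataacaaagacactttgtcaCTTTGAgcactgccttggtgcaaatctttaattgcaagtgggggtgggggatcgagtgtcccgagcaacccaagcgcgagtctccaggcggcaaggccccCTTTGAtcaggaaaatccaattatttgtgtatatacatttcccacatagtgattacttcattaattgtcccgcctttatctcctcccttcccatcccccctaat
Ascl4: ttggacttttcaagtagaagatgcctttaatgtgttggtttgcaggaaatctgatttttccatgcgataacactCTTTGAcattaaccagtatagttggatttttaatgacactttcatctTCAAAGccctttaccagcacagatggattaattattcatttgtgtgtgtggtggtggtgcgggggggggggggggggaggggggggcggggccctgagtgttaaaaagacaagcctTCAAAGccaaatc

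The *Sp5* window held 2 matches, both on the plus strand, that began 204 and 104 bases before the start. The *Ascl4* window held 3 matches, 176 bases before the start on the plus strand and 129 and 13 bases before it on the minus strand. Searched on both strands, CTTTGA stood in 4544 of the 32851 RefSeq promoter windows of this length (13.8%) and GGGNNTTCC, the letters of an NF-kB site, in 1635 (4.98%). Of the 15 genes with the highest placode to basal ratio, 11 had a promoter in the table, and CTTTGA was present in those of *Sp5*, *Ascl4* and *Sox21* (3 of 11). None of these 11 held GGGNNTTCC (0 of 11). Of the 10 genes with the lowest ratio, the promoters of 6 were searched, with CTTTGA in 0 and GGGNNTTCC in 1, that of *Lgals9*. Named genes on chromosome 18, here *Dsg3* and *Dsg1a*, were left out of the search, whereas the shares over all windows made no such exclusion. The promoters of *Dkk4*, *Fgf20*, *Shh* and *Bmp2* were not analysed here. A match is a run of letters and says nothing by itself about binding.

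In the whole series, the libraries held 59664869 (Ctrl) and 49755010 (cKO) UMIs over all barcodes, and 4447 and 3577 cells passed the gene minimum. Among the placode cells, *Mettl3* had 29 UMIs in Ctrl and 11 in cKO, 17.9 and 6.35 UMIs per 1000000 UMIs of the group (CPM), a ratio of 0.36 (0.16 to 0.73). The deleted part of *Mettl3* is an internal exon and the library reads the 3′ end, so this level does not check the deletion. RNA of *Xist*, made only in cells with an inactive X chromosome, was present in 153 of 155 Ctrl placode cells and in 0 of 174 cKO placode cells at a fixed depth of 5500 UMIs. The sex of the embryos and the genotype therefore cannot be told apart in any comparison of cKO with Ctrl. The libraries shared 16 barcodes among cells that passed the gene minimum, and none of these were placode cells.

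Placode cells made up 158 of 4447 Ctrl cells, 3.55% (3.03 to 4.14), and 185 of 3577 cKO cells, 5.17% (4.47 to 5.95). The share was 1.62 percentage points (0.72 to 2.54) higher in the cKO library. When every cell was first thinned to 5500 UMIs, the share was 2.62% in Ctrl and 4.20% in cKO. Placode cells were close in depth to the other cells, with a median of 9081.5 UMIs and 2563.5 genes in Ctrl and of 8231 UMIs and 2426 genes in cKO. The median share of mitochondrial UMIs was 4.99% and 5.90%, against 4.66% and 5.01% in all cells that passed the gene minimum.

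The placode cells were split by which of *Dkk4* and *Fgf20* they held. The minimum of 2 UMIs left out cells with 1 UMI, which can hold only 1 of the RNAs. The counts of cells with both are therefore a description of the selected cells. In Ctrl, 81 placode cells had both RNAs, 44 had *Dkk4* alone and 33 had *Fgf20* alone. In cKO, 105 had both, 32 had *Dkk4* alone and 48 had *Fgf20* alone. The median cell held 4 UMIs of the pair in Ctrl and 5 in cKO, and the highest held 57 and 46. Cells just inside the rule, with exactly 2 UMIs, numbered 48 and 40, and cells just outside it, with 1 UMI, numbered 122 and 128. Cells with exactly 2 UMIs had *Shh* at 96.5 and 122 CPM and *Bmp2* at 205 and 154 CPM (Ctrl and cKO in this order throughout). Those with 1 UMI had *Shh* at 71.3 and 114 CPM and *Bmp2* at 94.6 and 92.5 CPM. In cells with none, *Shh* was at 11.9 and 14.9 CPM and *Bmp2* at 31.7 and 22.8 CPM. The cells with 1 UMI thus lay between the members and the rest for both genes.

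**Figure D1:**
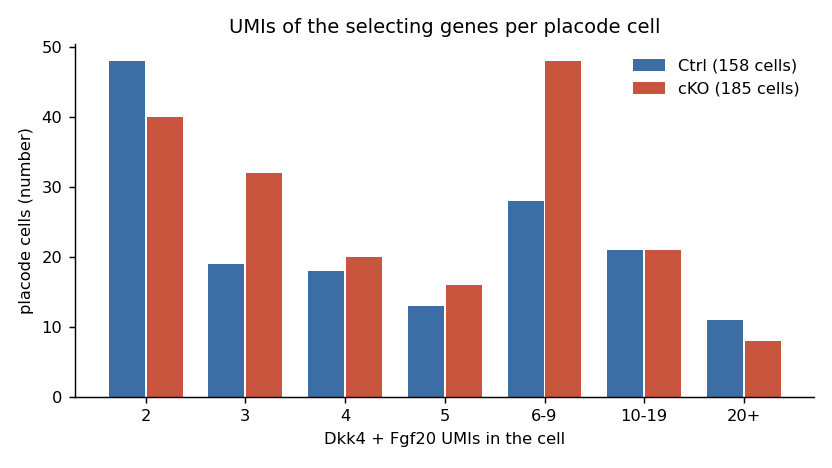
Number of placode cells (vertical axis) by their UMIs of *Dkk4* and *Fgf20* together (horizontal axis) in the Ctrl and cKO libraries. The bin with exactly 2 UMIs holds 48 Ctrl and 40 cKO cells, and 11 Ctrl and 8 cKO cells have 20 or more.

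The name of these cells was checked against placode genes that the rule did not use. Against basal cells of the same library, *Lrp4* was 5.53- and 5.55-fold higher, *Cdh3* (P-cadherin) 2.38- and 2.42-fold, *Wnt10b* 2.93- and 2.93-fold and *Lef1* 1.62- and 1.70-fold. The low-count genes *Ctgf* and *Madcam1* were 7.35- and 6.60-fold and 33.3- and 29.2-fold higher. *Sostdc1*, a secreted inhibitor of BMP and WNT signals that rings the placode, went the other way, at 83.2 and 65.8 CPM, 0.30 and 0.26 times its basal level. Thus 6 of these 7 placode markers were higher than in basal cells in both libraries and *Sostdc1* was lower. Not all of them set placode cells apart from Shh tip cells, defined below. At full depth *Wnt10b* was seen in 17.7% and 21.1% of placode cells and in 27.4% and 24.3% of Shh tip cells. *Madcam1* was seen in 6.33% and 9.19% against 6.85% and 12.2%. *Ctgf* (12.7% and 7.03% against 2.74% and 1.35%) and *Lef1* (87.3% and 75.7% against 76.7% and 73.0%) were seen more often in placode cells. *Foxi3* had 0 and 3 UMIs.

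RNA of the rule's genes was looked for outside the placode cells. Among suprabasal cells, which should lack both, 4 of 254 Ctrl cells (1.57%) and 3 of 155 cKO cells (1.94%) had any *Dkk4* or *Fgf20* UMI, at median depths of 11739 and 10760 UMIs. Barcodes with 10 to 100 UMIs, taken as free RNA, held *Dkk4* at 15.6 and 15.8 CPM and *Bmp2* at 27.2 and 28.4 CPM. Keratin RNA was abundant there, with *Krt14* at 8221 and 5815 CPM, *Krt5* at 3933 and 2849 CPM, *Krt15* at 4685 and 2674 CPM and *Krt17* at 1009 and 912 CPM. Within the placode cells the corresponding levels were 541 and 456 CPM for *Dkk4* and 262 and 240 CPM for *Bmp2*.

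Markers of other cell types were examined as whole lists. Melanocyte markers summed to 3.08 and 1.73 CPM over 6 genes, with *Tyrp1* and *Tyr* at 0 in both libraries. Merkel cell markers summed to 1.23 and 0.58 CPM over 5 genes, with *Atoh1*, *Krt20* and *Chga* at 0. Leukocyte and endothelial markers summed to 51.8 and 37.5 CPM over 7 genes, nearly all of it *Cd74* (46.8 and 32.3 CPM), and *Ptprc*, *Cd207*, *Cdh5* and *Kdr* were at 0. Dermal markers summed to 2774 and 2232 CPM against 693 and 582 CPM in basal cells. Nearly all of this was *Dcn*, a matrix proteoglycan, at 2770 and 2225 CPM, whereas *Pdgfra*, *Col3a1* and *Twist2* were at 0 in the placode cells of both libraries. *Dcn* was thus at 4.04 and 3.85 times its basal level and *Cd74* at 46.8 and 32.3 CPM against 3.90 and 2.14 CPM in basal cells, beside list members at 0, and the part of other cells in these levels was not tested. Suprabasal markers summed to 2044 and 1882 CPM over 7 genes, mostly *Dmkn* and *Krtdap*, against 4936 and 5100.3 CPM in basal cells. WNT-low follicle markers summed to 1542 and 1012 CPM over 8 genes, mostly *Krt17*, against 3417 and 2532 CPM in Shh tip cells.

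The placode cells were set beside 3 other groups of cells. Shh tip cells had 2 or more *Shh* UMIs and no *Dkk4* or *Fgf20* (73 Ctrl and 74 cKO cells). Edar Bmp2 cells had 2 or more UMIs of *Edar* and *Bmp2* together and none of *Dkk4*, *Fgf20* or *Shh* (332 and 164 cells). Basal cells had *Krt5* and *Krt14* together at 60 or more UMIs per 10000, under 2 UMIs of *Edar* and *Bmp2* together, and no *Dkk4*, *Fgf20*, *Shh*, *Sox9* or *Lhx2* (2164 and 1342 cells). All 3 of these groups, like the placode cells, had *Krt1* and *Krt10* under 30 per 10000. The levels of the genes in these rules are therefore a description.

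Among the signals that the placode sends, *Bmp2* was at 262 and 240 CPM in placode cells, 101 and 108 CPM in Shh tip cells and 148 and 130 CPM in Edar Bmp2 cells. *Shh* was at 198 and 234 CPM in placode cells and at 421 and 415 CPM in Shh tip cells, which were chosen for it. *Edar*, the ectodysplasin receptor, was at 91.8 and 79.1 CPM in placode cells. The order of *Bmp2* levels, with placode cells above Edar Bmp2 cells and those above Shh tip cells, was the same in both libraries.

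Some genes of the WNT pathway were graded across the groups. *Ctnnb1* was at 1216 and 1225 CPM in placode cells, 1018 and 895 CPM in Shh tip cells, 585 and 565 CPM in Edar Bmp2 cells and 398 and 395 CPM in basal cells. *Lrp4*, a coreceptor that binds WNT modulators, was at 192 and 244 CPM, 81.3 and 134 CPM, 43.9 and 79.6 CPM, and 34.8 and 43.9 CPM in the same order. Both genes thus declined in that order in either library. *Sp5* was at 62.8 and 110 CPM in placode cells and 31.3 and 70.6 CPM in Shh tip cells, and at 0.84 and 1.08 CPM in Edar Bmp2 cells. *Lef1* was at 249 and 201 CPM in placode cells, while its levels in Shh tip (161 and 131 CPM), Edar Bmp2 (160 and 127 CPM) and basal cells (153 and 118 CPM) lay close together. The WNT feedback gene *Nkd1* went the other way between placode and Shh tip cells. At full depth it was seen in 16.5% and 20.5% of placode cells and in 46.6% and 45.9% of Shh tip cells. *Axin2*, another feedback gene, was seen in 27.2% and 18.4% of placode cells and in 19.2% and 20.3% of Shh tip cells. Its order between these groups thus differed between the libraries.

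At the fixed depth of 5500 UMIs, *Bmp2* was seen in 67.7% of Ctrl and 70.7% of cKO placode cells, *Shh* in 51.0% and 48.3%, *Edar* in 41.9% and 35.1%, and *Lef1* in 74.8% and 65.5%. At full depth the shares were 81.0% and 77.3% for *Bmp2*, 62.0% and 62.7% for *Shh*, and 53.8% and 51.9% for *Edar*. Each of these RNAs was thus seen in part of the placode cells and missed in the others. Suprabasal cells held *Bmp2* at 5.01 and 4.81 CPM.

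**Figure D2:**
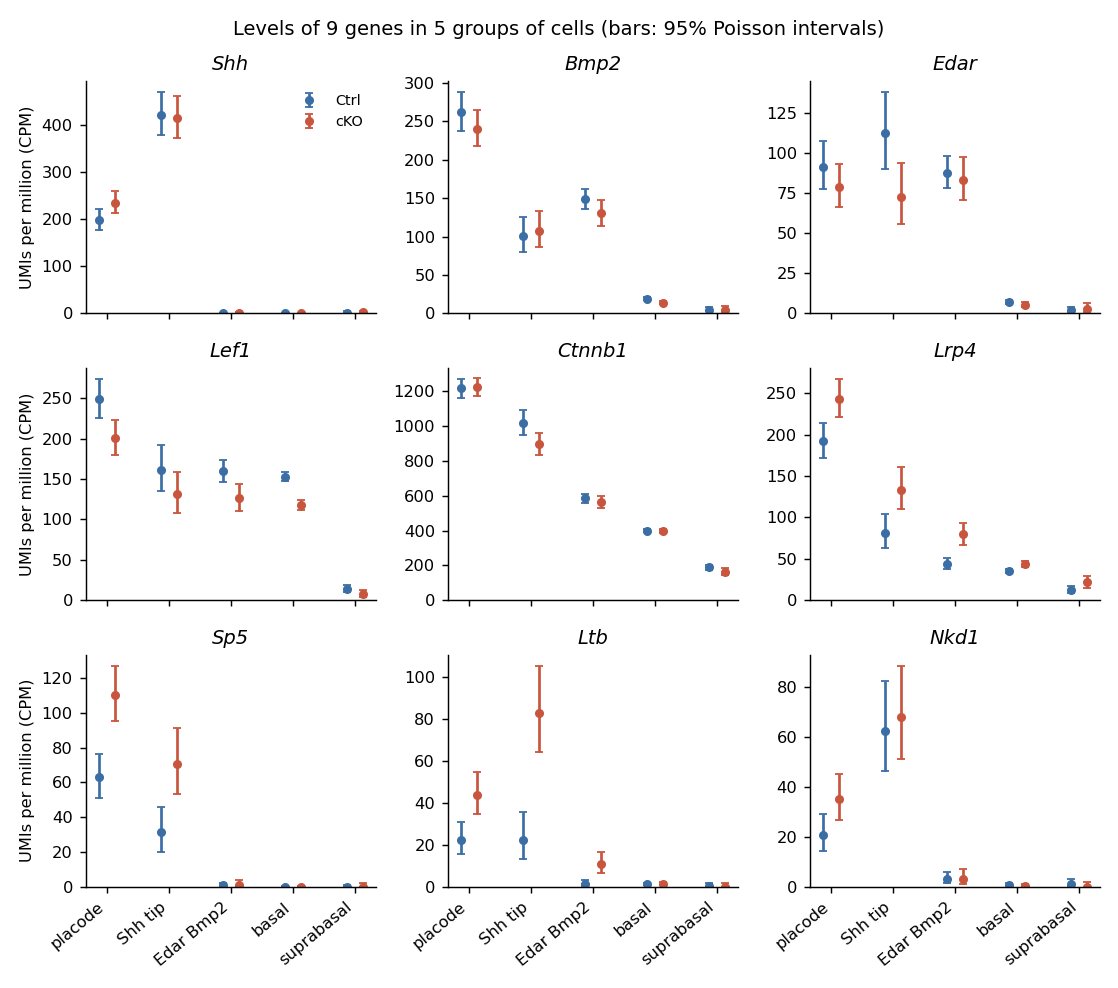
Levels of 9 genes as CPM (linear axes from 0) in the placode, Shh tip, Edar Bmp2, basal and suprabasal cells of each library, with 95% counting intervals as bars. *Bmp2* is at 262 (Ctrl) and 240 (cKO) CPM in placode cells and at 19.2 and 14.2 CPM in basal cells, while *Shh* is highest in Shh tip cells, which were chosen for it.

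Placode cells differed from basal cells in several gene groups at once. Of the 9380 genes compared, 232 (2.47%) were over 2-fold higher in placode cells in both libraries and 275 (2.93%) were over 2-fold lower. The list counts against basal cells below stand beside these shares. Among the genes with the highest ratios, *Sp5* had 102 and 191 UMIs in placode cells, 62.8 and 110 CPM, and 3 and 1 UMIs in the much larger basal group. Its ratio was 435 (145 to 2145) in Ctrl and 1394 (247 to 55340) in cKO. *Ascl4* was at 62.2 and 102 CPM in placode cells and 1.35 and 1.66 CPM in basal cells, a ratio of 46.2 and 61.5. Basal cells held next to no RNA of either gene. *Sox21*, a transcription factor of the hair lineage, was at 86.3 and 107 CPM, 7.96 and 8.94 times its basal level.

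Signalling and matrix genes followed. *Tgfb2*, a TGF-β ligand, was 23.7- and 19.8-fold higher than in basal cells, and *Tmem100*, a membrane protein, 15.4- and 15.8-fold. *Fn1*, which encodes the matrix protein fibronectin, was at 172 and 159 CPM, 16.8 and 10.8 times the basal level. *Phlda1*, at 558 and 519 CPM, was 11.7- and 11.5-fold higher. In Shh tip cells *Tgfb2* was at 208 and 154 CPM, against 62.8 and 61.2 CPM in placode cells, and *Fn1* at 295 and 206 CPM. *Fam13a*, at 155 and 193 CPM in placode cells, was at 220 and 218 CPM there, and in cKO the interval of its ratio held 1. Against all other cells of low *Krt1* and *Krt10*, the *Tgfb2* ratio in cKO was -0.17 on the log2 scale. *Fam13a* was 12.7- and 19.6-fold, *Pdlim4* 8.97- and 9.17-fold, *Epb41l2* 8.27- and 8.80-fold and *Ifi202b* 7.99- and 12.8-fold higher. *Gadd45g*, a stress-inducible cell cycle regulator, was at 339 and 256 CPM (8.84- and 7.70-fold), and *Trib1* and *Rasgef1b* were 8.47- and 7.66-fold and 8.31- and 7.73-fold higher. *S100a9*, a calcium-binding protein, was 46.2- and 79.2-fold higher, although 1 Ctrl placode cell held 22.8% of its 101 UMIs there.

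The 10 genes with the lowest placode to basal ratio had few UMIs in placode cells. *Dsg3* and *Dsg1a*, desmosomal cadherins that hold keratinocytes together, had 2 to 4 UMIs there and were at 0.13 and 0.11 and at 0.16 and 0.075 times the basal level. In the list of cadherins, catenins and desmosomes, 2 of 15 genes were over 2-fold higher in both libraries and 3 lower. *Dlk2*, a membrane protein related to Notch ligands, was at 5.54 and 7.51 CPM against 68.9 and 64.7 CPM in basal cells. *Defb1*, an antimicrobial peptide of the epidermis, was at 4.31 and 5.20 CPM against 32.7 and 69.3 CPM. *Ahnak2* (0.11 and 0.080 times), *Lgals9* (0.13 and 0.13 times) and the transcription factor *Tfap2e* (0.17 and 0.15 times) were also low. *Tnni2* and *Ascl2* had 1 or 2 UMIs in the placode cells of either library, and *Tgfbi*, a matrix protein, had 2 UMIs in Ctrl and 0 in cKO.

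**Figure D3:**
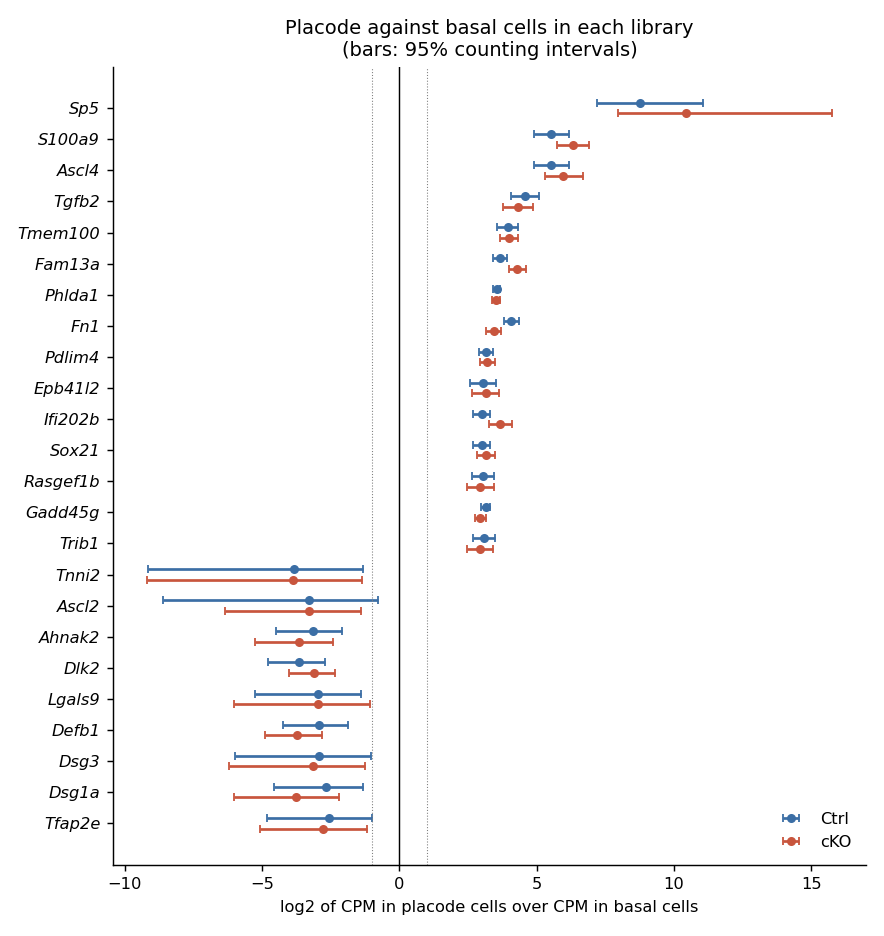
The log2 ratio of CPM in placode cells to CPM in basal cells in the Ctrl and cKO libraries, for the genes with the highest and lowest ratios, with 95% counting intervals as bars and dotted lines at 2-fold. The 15 highest and the lowest genes were ranked by the library with the smaller fold difference. Their shared side in both libraries therefore follows from the ranking. *Ascl4* lies at ratios of 46.2 and 61.5 and *Dlk2* at 0.081 and 0.12, and *Tgfbi* is left out because it had 0 UMIs in the cKO placode cells.

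By pathway, the WNT genes stood on both sides of the basal level. Of 10 measured WNT ligands and carriers, 1 was over 2-fold higher in both libraries and 3 were over 2-fold lower, with medians of -0.67 and -0.78 on the log2 scale. *Wnt4* was among the lower ones, at 0.33 and 0.28 times the basal level, whereas *Wnt3* was at 2.02 and 1.72 times. Of 15 WNT receptors and coreceptors, 2 were over 2-fold higher and 1 lower, and the higher ones included *Lrp4* and *Lgr6*, a receptor of R-spondins (3.85 and 3.88 times). *Ctnnb1*, which encodes β-catenin, was at 1216 and 1225 CPM, 3.06 and 3.10 times its basal level. *Tcf7*, a partner of β-catenin on DNA, was 6.32- and 6.61-fold higher. *Nkd1*, a feedback inhibitor of WNT signalling, was 22.9- and 63.6-fold higher. Over the lists, 2 of 15 transducers and 2 of 8 inhibitors and feedback targets were over 2-fold higher in both libraries, and 0 and 1 over 2-fold lower.

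In the EDA and NF-kB list, 7 of 18 measured genes were over 2-fold higher than in basal cells in both libraries and 2 were lower. *Edar* itself was left out of these counts because the basal rule used it. *Relb*, an NF-kB subunit, was 3.14- and 4.20-fold higher, and *Nfkbia*, which encodes the inhibitor of NF-kB and is itself its target, was 2.22- and 2.21-fold higher. *Ltb*, the NF-kB target that encodes lymphotoxin β, was 15.4- and 27.7-fold higher. *Fst*, an inhibitor of activin and BMP, was at 0.32 and 0.22 times the basal level. The hedgehog coreceptor *Gas1* was at 0.23 and 0.16 times.

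In the FGF list, the targets *Dusp6*, *Etv4* and *Etv5* stood above the basal level and the receptor *Fgfr2* below it. The medians of the list were 0.26 and 0.41 on the log2 scale. *Dusp6*, a phosphatase induced by ERK signalling, was 5.0- and 5.0-fold higher. The ETS factors *Etv4* and *Etv5* were 4.76- and 6.18-fold and 3.50- and 4.99-fold higher. *Fgfr2*, the receptor of epithelial cells, was at 83.2 and 87.8 CPM, 0.50 and 0.46 times the basal level. In this list 3 of 11 genes were over 2-fold higher and 2 lower in both libraries.

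Placode cells were next compared with Shh tip cells. Of 4740 genes compared, 33 (0.696%) were over 2-fold higher in placode cells in both libraries and 90 (1.9%) were over 2-fold lower. *Wnt16*, a WNT ligand, was at 122 and 120 CPM, 4.88 and 4.60 times its level in Shh tip cells. *Postn* (periostin, a matrix protein) was at 347 and 262 CPM, 3.81 and 8.12 times, and *Igfbp2*, which binds insulin-like growth factors, 3.41 and 7.29 times. *Slc1a3*, a glutamate transporter, was 3.83- and 6.44-fold higher and *Ifi202b* 11.2- and 7.25-fold. Set against basal cells instead, *Wnt16* was at 0.86 and 0.94 times and *Igfbp2* at 0.65 and 0.50 times the basal level. *Postn* (1.42 and 1.41 times), *Slc1a3* (1.79 and 1.76 times) and *Ifi202b* (7.99 and 12.8 times) were above it. These 5 genes were ranked by the library ratio nearer to 1, so their shared direction in both libraries follows from the ranking.

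The 5 genes furthest below Shh tip cells were *Lhx2*, *Ccnd1*, *Nrp2*, *Figf* and *Mgp*. *Lhx2*, a transcription factor of hair progenitors, was at 57.3 and 52.5 CPM in placode cells and 493 and 415 CPM in Shh tip cells. *Ccnd1*, which encodes cyclin D1, was at 36.4 and 26.6 CPM against 308 and 253 CPM. *Nrp2* was at 0.17 and 0.17 times, *Figf*, a vascular endothelial growth factor, at 0.12 and 0.072 times and *Mgp* at 0.12 and 0.18 times the level of Shh tip cells. Against basal cells *Ccnd1* was at 0.95 (0.72 to 1.24) and 0.44 (0.32 to 0.60) times. *Ccnd2*, another D-type cyclin, was at 1322 and 1273 CPM in placode cells and at 489 and 612 CPM in Shh tip cells.

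Many placode cells held RNA of *Mki67* or *Top2a*, which are made in dividing cells. At 5500 UMIs, 52.9% (44.7 to 61.0) of Ctrl and 62.6% (55.0 to 69.8) of cKO placode cells had a UMI of either. In basal cells the shares were 53.1% and 59.2%, in Shh tip cells 52.1% and 58.0%, and in suprabasal cells 29.8% and 33.6%. The share was higher in cKO than in Ctrl in each of these groups, and in placode cells the intervals of the libraries overlapped. No phase was assigned to single cells, and free RNA can give such UMIs.

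Placode cells varied among themselves with *Shh*, which the rule did not use. *Shh* had 0 UMIs in 60 Ctrl and 69 cKO placode cells, 1 UMI in 34 and 31, and 2 or more in 64 and 85. Across these classes *Krt14*, a keratin of basal cells, was at 6916, 4752 and 3552 CPM in Ctrl and at 3788, 3946 and 2381 CPM in cKO. *Lhx2* was at 10.9, 51.7 and 104 CPM in Ctrl and 3.28, 15.4 and 98.7 CPM in cKO. In both libraries the cells with the most *Shh* held the least *Krt14* and the most *Lhx2*.

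*Edar* was at 51.5, 87.2 and 132 CPM in Ctrl and at 52.5, 72.9 and 99.8 CPM in cKO across the same classes. *Sox21* was at 45.2, 83.9 and 126 CPM in Ctrl and 75.4, 72.9 and 139 CPM in cKO. *Bmp2* was ordered with *Shh* in Ctrl, at 143, 262 and 375 CPM, and less evenly in cKO, at 216, 203 and 268 CPM. *Edar*, *Sox21* and *Bmp2* were thus highest in cells with 2 or more *Shh* UMIs. Other placode markers went otherwise, with *Ctgf* at 24.9, 6.5 and 13.4 CPM in Ctrl and 19.7, 7.7 and 5.8 CPM in cKO, and *Lef1* at 214, 291 and 263 CPM in Ctrl and 215, 234 and 181 CPM in cKO. Cells with *Dkk4* alone had more *Shh* than cells with *Fgf20* alone, at 122 against 46.7 CPM in Ctrl and 261 against 150 CPM in cKO.

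**Figure D4:**
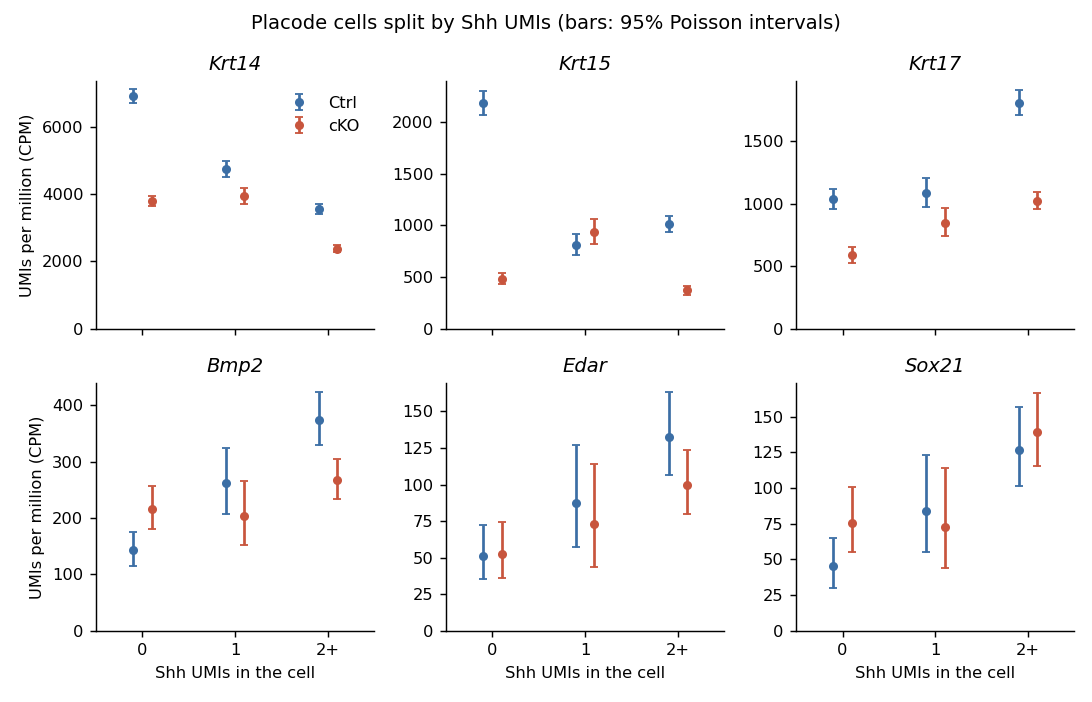
Levels (CPM) of placode and keratin genes in placode cells with 0, 1 and 2 or more *Shh* UMIs in the Ctrl and cKO libraries, with 95% counting intervals as bars. *Krt14* is lowest in cells with 2 or more *Shh* UMIs (3552 CPM in Ctrl and 2381 CPM in cKO), where *Edar* is highest (132 and 99.8 CPM).

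Between the genotypes, keratins of the placode cells were lower in cKO, and the signals and receptors *Shh*, *Bmp2* and *Edar* had ratios near 1. Of the 5887 genes whose UMIs in placode cells summed to 50 or more, 415 (7.05%) were over 1.5-fold higher in cKO placode cells and 326 (5.54%) over 1.5-fold lower, and the median log2 ratio was -0.02. The list counts below stand beside these shares, and a count near them says nothing particular about its list. *Dkk4* was at 541 CPM in Ctrl and 456 CPM in cKO, and *Fgf20* at 157 and 240 CPM, levels that the rule selected. *Shh* had a ratio of 1.19 (1.02 to 1.38), *Bmp2* of 0.92 (0.80 to 1.05) and *Edar* of 0.86 (0.68 to 1.09). Of the 15 measured placode genes, 1 (*Ltb*) was over 1.5-fold higher and 1 (*Cxcl10*) over 1.5-fold lower, with a median log2 ratio of -0.12.

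Keratins stood lower in cKO placode cells than in Ctrl. *Krt15*, a keratin of basal and follicle progenitors, was at 1436 CPM in Ctrl and 495 CPM in cKO, a ratio of 0.35 (0.32 to 0.37), against 0.59 in basal cells. *Krt5* was at 2001 and 1109 CPM (0.55, 0.52 to 0.59) and *Krt14* at 5110 and 3112 CPM (0.61, 0.59 to 0.63), which were not set against basal cells since those were selected on both genes. *Krt17*, a keratin of the follicle, was at 1367 and 843 CPM (0.62, 0.58 to 0.66), whereas its ratio in basal cells was 0.95. Of 5 measured keratins 4 were over 1.5-fold lower, and the median log2 ratio of the list was -0.72. *Krt18*, of simple epithelium, was at 18.5 and 19.1 CPM. The ratio in placode cells divided by that in basal cells was 0.58 (0.54 to 0.63) for *Krt15* and 0.65 (0.61 to 0.70) for *Krt17*. Lower keratin levels in cKO were also measured in Shh tip cells, with *Krt14* at 3002 and 1867 CPM and *Krt15* at 1280 and 713 CPM, and in Edar Bmp2 cells, at 8061 and 5067 CPM and 4372 and 2665 CPM. Free RNA held these keratins above or near their placode levels and was itself lower in cKO, and its part in the difference was tried only by subtracting 5% of each sum, which gave a log2 ratio of -0.74 for *Krt14* and -1.73 for *Krt15*.

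The lower keratins were seen within most *Shh* classes. *Krt14* had a ratio of cKO to Ctrl of 0.55 in placode cells without *Shh*, 0.83 with 1 *Shh* UMI and 0.67 with 2 or more. *Krt15* had 0.22 (0.20 to 0.25), 1.16 (0.97 to 1.38) and 0.37 (0.32 to 0.42) in the same classes. The class with 1 *Shh* UMI, which held 34 and 31 cells, thus did not share the low *Krt15* of the other two. In the list of cadherins, catenins and desmosomes, 1 of 13 measured genes was over 1.5-fold lower, *Jup* (plakoglobin) at 129 and 81.4 CPM (ratio 0.63), and none was over 1.5-fold higher, with a median log2 ratio of -0.22. The desmosomal *Perp* was at 742 and 565 CPM (0.76) and *Dsc3* at 27.1 and 35.2 CPM (1.30, 0.87 to 1.96).

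WNT ligands and receptors were compared next. *Wnt3* was at 113 and 113 CPM, *Wnt6* at 184 and 166 CPM, *Wnt10b* at 24.6 and 24.8 CPM and *Wnt16* at 122 and 120 CPM. None of the 7 measured ligands and carriers was past 1.5-fold (0 of 7 in either direction), and none of the 11 measured receptors was (0 of 11). Over all genes measured, 7.05% were past that fold upward and 5.54% downward. Of the receptors, *Lrp4* had the highest ratio, at 192 and 244 CPM (1.27, 1.09 to 1.47). Its ratio in basal cells was 1.26, and the ratio of the ratios had an interval of 0.835 to 1.21.

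Behind the receptors, *Ctnnb1* was level (ratio 1.01), while *Lef1* was at 249 and 201 CPM (0.81, 0.70 to 0.93) with 0.77 in basal cells. *Tcf7* was at 25.3 and 16.7 CPM (0.66, against 0.63 in basal cells). *Lef1* and *Tcf7* were thus lower in cKO in basal cells too. Of 9 measured transducers 2 were over 1.5-fold lower, *Tcf7* and *Axin1*, a scaffold of the complex that degrades β-catenin (0.58, but 0.36 on the log2 scale when the rule followed thinning), and the median log2 ratio was -0.19.

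Feedback targets of WNT signalling did not go 1 way. *Sp5* was at 62.8 and 110 CPM, a ratio of 1.75 (1.37 to 2.25), and was seen in 54 of 158 and 84 of 185 placode cells. *Nkd1* was at 20.9 and 35.2 CPM (1.68, 1.09 to 2.64), while *Axin2* was at 34.5 and 23.7 CPM (0.69, 0.45 to 1.04). *Kremen2*, a receptor for DKK proteins, was at 327 and 371 CPM (1.13, 1.01 to 1.27). *Sp5* and *Nkd1* were the 2 of 6 measured members over 1.5-fold higher, and none was over 1.5-fold lower. In placode cells with 0, 1 and 2 or more *Shh* UMIs the ratio of *Sp5* was 3.04, 2.91 and 1.33.

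NF-kB targets also went both ways. *Ltb* had 36 UMIs in 23 Ctrl cells and 76 UMIs in 32 cKO cells, 22.2 and 43.9 CPM, a ratio of 1.98 (1.31 to 3.03) against 1.10 in basal cells. In Shh tip cells *Ltb* was at 22.5 and 83.0 CPM. *Cxcl10*, a chemokine, had 60 UMIs in 19 Ctrl cells and 20 UMIs in 10 cKO cells, 37.0 and 11.5 CPM (0.31, 0.18 to 0.53), and 1 cKO cell held 25% of them. *Tnfaip3*, an inhibitor of NF-kB, had a ratio of 1.74 (1.07 to 2.88). *Nfkbia* was at 475 and 359 CPM (0.76, 0.68 to 0.84), with the same 0.76 in basal cells. Of 15 measured members 2 were over 1.5-fold higher and 1 lower.

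Among hedgehog genes, *Ptch1*, the receptor of SHH and a target of its signal, stood apart. It was at 83.2 and 47.4 CPM, a ratio of 0.57 (0.43 to 0.76), whereas its ratio was 1.21 in basal cells and its levels were 173 and 176 CPM in Shh tip cells. The ratio in placode cells divided by that in basal cells was 0.47 (0.35 to 0.63). *Smo*, the transducer that PTCH1 holds in check, was at 37.6 and 24.3 CPM (0.65, 0.43 to 0.97). *Gli1*, a transcription factor and target of the pathway, was at 20.9 and 21.4 CPM. *Gli1* was thus nearly level where *Ptch1* was lower. Of 7 measured genes 2 were over 1.5-fold lower, with a median log2 ratio of -0.14.

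BMP genes were close to level by their median log2 ratio of -0.12. Past 1.5-fold, 1 of 13 was higher (the inhibitory *Smad7*, 1.67, 0.91 to 3.15) and none lower, beside 7.05% and 5.54% over all genes measured. *Bmp7* was at 184 and 165 CPM, and *Id3*, a target of BMP signals, at 349 and 292 CPM (0.84, 0.74 to 0.94). The FGF feedback inhibitor *Spry2* was at 19.1 and 44.5 CPM, a ratio of 2.33 (1.52 to 3.66) against 1.24 in basal cells. *Spry2* had 31 UMIs in 21 Ctrl cells and 77 UMIs in 52 cKO cells, and it was the 1 of 9 measured FGF genes past 1.5-fold. *Dusp6* was at 171 and 209 CPM (1.22, 1.04 to 1.43). In placode cells without *Shh* the *Spry2* ratio was 18.9 (4.87 to 162), from 2 and 36 UMIs, and in those with 2 or more *Shh* UMIs it was 0.960.

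The Notch target *Hes1* was at 40.7 and 68.7 CPM (1.69, 1.24 to 2.32), with 1.75 in basal cells. *Lfng*, a modifier of Notch receptors, had a ratio of 0.54. *Trp63*, the master regulator of stratified epithelia, was at 234 and 274 CPM (1.17), and *Gata3* was at 92.4 and 60.1 CPM (0.65). Of the 13 measured epidermal and follicle transcription factors, *Gata3* was the 1 past 1.5-fold and the median log2 ratio was 0.06.

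**Figure D5:**
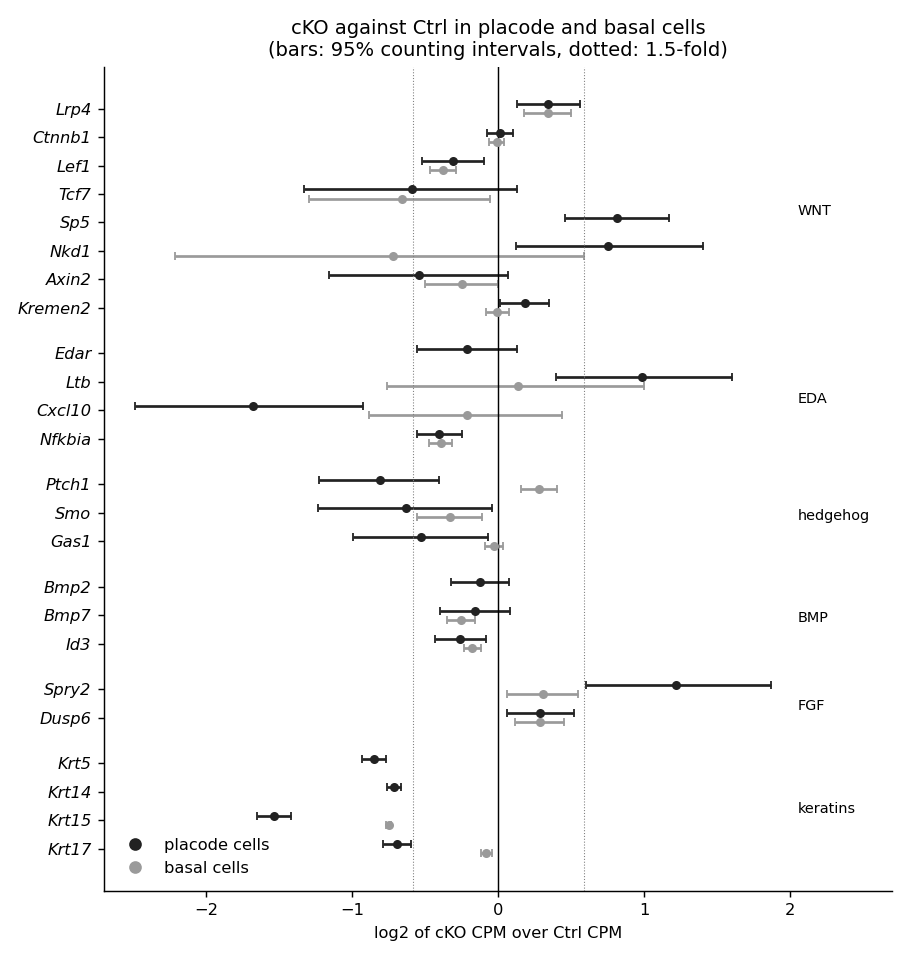
The log2 ratio of cKO CPM to Ctrl CPM for genes of 5 pathways and keratins in placode cells and in basal cells, with 95% counting intervals as bars and dotted lines at 1.5-fold. *Krt15* (ratio 0.35) and *Ptch1* (0.57) lie below 1 in placode cells and *Spry2* (2.33) and *Sp5* (1.75) above it, and basal points are not drawn for genes of the basal rule (*Krt5*, *Krt14*, *Edar* and *Bmp2*) or with under 10 UMIs in all (*Sp5*, 3 and 1 UMIs).

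The m6A machinery was the list with the highest median, at 0.34 on the log2 scale, with 2 of 15 measured genes over 1.5-fold higher, *Rbm15* and *Cbll1* (1.57), and none lower, while *Mettl3* itself (0.36) had too few UMIs to be counted. *Rbm15*, which guides the writer complex to RNA, had 11 UMIs in 9 Ctrl cells and 59 UMIs in 44 cKO cells, 6.78 and 34.1 CPM, a ratio of 5.03 (2.62 to 10.6) against 3.32 in basal cells. The m6A readers *Ythdf2* and *Ythdc1* were at 98.6 and 147 CPM (1.49) and at 105 and 143 CPM (1.36), whereas *Ythdf1* (0.95, 0.66 to 1.37), *Ythdf3* (1.08, 0.69 to 1.69) and *Igf2bp2* (0.81, 0.55 to 1.20) had intervals that held 1. *Wtap*, a further subunit of the writer, was at 102 and 90.1 CPM. *Mettl14*, the partner of METTL3, had 14 and 15 UMIs.

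Immediate early genes and heat shock genes were taken as a list of stress and dissociation. *Fos* was at 122 and 66.4 CPM (0.54, against 0.91 in basal cells) and *Egr1* at 42.5 and 21.4 CPM (0.50, against 0.69). *Hspa1a*, a heat shock protein, was at 44.4 and 98.7 CPM (2.23, against 1.62). Of the 15 measured genes 2 were over 1.5-fold higher and 4 lower. These genes can respond to tissue dissociation, and their part in the other differences was not tested.

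Cell cycle genes were compared by phase. *Mki67* was at 73.3 and 105 CPM (1.43, 1.12 to 1.81). Of 37 measured S phase genes 3 were over 1.5-fold higher and 1 lower (median log2 ratio -0.16), and of 49 G2 and M phase genes 1 was higher and 2 lower (0.04). The shares over all genes measured were 7.05% higher and 5.54% lower. *Blm*, a DNA helicase, had the highest S phase ratio, 2.26 (1.26 to 4.24), with 0.93 in basal cells, and *Ttk*, a spindle checkpoint kinase, the lowest G2 and M ratio, 0.54, with 1.19 in basal cells. Of 10 measured cyclins, CDK inhibitors and MYC family genes, 1 was over 1.5-fold higher and 2 lower (median log2 ratio -0.31). The CDK inhibitor *Cdkn1c* was at 124 and 72.8 CPM (0.59, 0.47 to 0.74), *Ccnd3* at 132 and 81.4 CPM (0.61, 0.49 to 0.76) and *Ccne1*, with 26 and 44 UMIs, had a ratio of 1.59 (0.96 to 2.68). *Ccnd1* had a ratio of 0.73 in placode cells and 1.57 in basal cells.

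Ranked by size among genes with at least 100 UMIs, *Socs2*, an inhibitor of cytokine signalling, had the highest ratio. It was at 21.6 and 72.2 CPM, a ratio of 3.35 (2.29 to 5.02) against 1.25 in basal cells, with 35 UMIs in 25 Ctrl cells and 125 UMIs in 68 cKO cells. The ratio in placode cells divided by that in basal cells was 2.67 (1.26 to 5.66), but the basal ratio rested on 21 and 16 UMIs. *Socs2* was higher in cKO in the other follicle groups too. It was at 3.63 and 12.46 CPM in Edar Bmp2 cells (13 and 23 UMIs). In Shh tip cells it was at 15.01 and 30.96 CPM (12 and 25 UMIs). In placode cells with 0, 1 and 2 or more *Shh* UMIs the *Socs2* ratio was 3.15, 3.37 and 3.16, so it was above 3 in all 3 classes.

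*Mtpap*, a mitochondrial poly(A) polymerase, was at 14.2 and 44.5 CPM (3.14, against 1.28 in basal cells). All of the 12 highest genes had ratios above 1 in basal cells too. The basal intervals held 1 for *Socs2* (0.61 to 2.52) and *S100a9* (0.94 to 2.88). *Rpp25l* was at 52.4 and 173 CPM (3.31, against 3.29 in basal cells), and *Polr2l*, a subunit of RNA polymerases, had 2.93 against 2.78. *Pelo*, a ribosome rescue factor, had 3.10 against 2.22, *Ndufaf1* 2.95 against 2.04, *Tbcc* 2.91 against 1.95 and *Abt1* 2.76 against 1.98. *Mrpl43* (2.72 against 2.64), *Mterf4* (2.67 against 2.22), *S100a9* (2.82 against 1.64) and the ribosomal protein gene *Rps27* (2.55 against 1.79) completed the list. *Rps27* has near-identical copies elsewhere in the genome, so its count is uncertain.

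Of the 12 lowest ratios, *Hist3h2a* (84.4 and 23.7 CPM, 0.28) and *Hist1h1c* (0.36) are histone genes, and both were as low in basal cells (0.22 and 0.27). *Stfa3*, *Stfa1* and *BC100530* belong to the stefin A family of protease inhibitors, whose members are near-identical so that reads may be split between them. *Stfa3* was at 588 and 189 CPM (0.32, against 0.52 in basal cells), *BC100530* had 0.34 against 0.73 and *Stfa1* 0.36 against 0.70. All 3 stefin A genes were lower in placode cells by more than in basal cells, but they were lower in the other groups too. In Shh tip cells *Stfa3* was at 190 and 74.3 CPM, *BC100530* at 52.5 and 17.3 CPM and *Stfa1* at 48.8 and 14.9 CPM. In Edar Bmp2 cells the levels were 1697 and 588 CPM, 389 and 256 CPM, and 226 and 128 CPM in the same order. *Dapl1*, which was 26.7- and 28.2-fold above its basal level, was at 45.0 and 15.6 CPM (0.35, against 0.33). *Ppp1r14c*, a phosphatase inhibitor, was at 50.5 and 19.1 CPM (0.38, against 1.01), *Calm4*, a calcium-binding protein of epidermis, at 115 and 55.4 CPM (0.48, against 1.43) and *Anxa8* had 0.47 against 0.83. *Mbd2* (0.45) and *Rbmx* (0.45) complete the list with *Krt15*.

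For orientation on GRCm38, *Dkk4* lies at chr8:22624043-22627547 on the plus strand and *Fgf20* at chr8:40279166-40308331 on the minus strand, each a protein-coding gene. *Shh* lies at chr5:28456815-28467256 (minus), *Bmp2* at chr2:133552159-133562885 (plus), *Edar* at chr10:58600789-58675654 (minus) and *Mettl3* at chr14:52294841-52305128 (minus).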

How the data were processed

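Single-cell libraries of sorted YFP-positive skin epithelial cells, 1 for Ctrl and 1 for cKO, were analysed from the deposited matrices, in which the authors gave raw UMI counts of 27998 genes over 737280 barcodes. The submitters' processing notes name Cell Ranger 2.0 and mm10, and the annotation release is not given in the sources used here. Of the gene IDs, 27722 matched GENCODE vM21.

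Barcodes with at least 1800 genes were kept. UMIs were summed over cells of a group per library and given as counts per 1000000 UMIs (CPM), with exact Poisson intervals, exact conditional binomial intervals for ratios and exact Clopper-Pearson intervals for shares, all at 95%. The interval of a ratio divided by a ratio used the normal approximation on the log scale. Cells are not replicates, so no test between genotypes was made. A ratio of cKO to Ctrl was counted past 1.5-fold among genes with at least 50 UMIs, and a ratio between cell groups past 2-fold in both libraries. Shares were also taken after each cell was thinned to 5500 UMIs. No doublet caller was run; placode cells in the top 5% of UMIs were instead left out in an alternative.

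The members, the gene lists and the comparison groups were chosen with earlier results of these data known. Named genes were those of the rule, *Shh*, *Bmp2*, *Mettl3*, and listed genes that reached 50 UMIs. To these were added the extremes among genes that reached 100 UMIs: for cKO to Ctrl the top 12 and bottom 12 ratios, for placode to basal the top 15 and bottom 10, and for placode to Shh tip the top 5 and bottom 5. *Xist* and Y-linked genes were left out of the ranking. *Ctgf*, *Madcam1* and *Foxi3* are named as markers at lower counts, and *Xist*, *Mettl14* and the zero-count markers of other cell types for checks of the cells. Motifs were searched in RefSeq promoter windows. Python 3.11.15, numpy 2.4.6, scipy 1.17.1 and pandas 2.3.3 were used, with edgeR 4.0.16 in R 4.3.3 for an alternative (TMM) scaling. The interval code was tested on simulated data.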

Additional observations from a re-analysis of the deposited data

Results flagged for a closer look

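Barcodes under the minimum of 1800 genes were not used above, and 43 of them in Ctrl and 88 in cKO met the *Dkk4*, *Fgf20*, *Krt1* and *Krt10* rule. Their medians were 4061 UMIs and 1502 genes in Ctrl and 3096.5 UMIs and 1252 genes in cKO.

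The ratio of cKO to Ctrl lay on opposite sides of 1 in placode and in basal cells for 91 of 318 listed and named genes. In 13 of these, the ratio was also past 1.5-fold in at least 1 of the cell groups and the counting interval of the ratio of ratios left out 1. The difference between the cell groups could not be tested between embryos with 1 library per genotype. The ratio in placode cells divided by that in basal cells was 0.34 for *Calm4*, 0.37 for *Ppp1r14c*, 0.45 for *Ttk*, 0.47 for *Ccnd1*, 0.47 for *Rhob*, 0.47 for *Ptch1*, 0.51 for *Axin1*, 0.57 for *Tpm1* and 0.61 for *Myh9*. It was 1.78 for *Ccne1*, 2.44 for *Blm*, 2.67 for *Krt18* and 2.78 for *Nkd1*.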

How the results depend on the processing

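No paired analysis was possible because each genotype has 1 library, and for the same reason no replicate could be left out. The higher share of placode cells in cKO was above 0 under all 9 alternatives, at 0.965 to 2.45 points, and its counting interval was above 0 under 8 of them, the exception being cells with at least 2500 genes. The share itself moved to 6.30% (Ctrl) and 8.75% (cKO) with 1 or more *Dkk4* and *Fgf20* UMIs, to 2.47% and 4.05% with 3 or more, to 2.62% and 4.20% after thinning, and to 4.38% in cKO with at least 1000 genes per cell. Genes over 1.5-fold higher numbered 2592 with a minimum of 1 UMI, 875 with 20 UMIs, 695 when the rule followed thinning and 863 without cells that held *Mki67* or *Top2a*. Those lower numbered 2384, 711, 673 and 975, and 197 with 1 or more rule UMIs. Against all other cells of low *Krt1* and *Krt10*, 545 genes were over 2-fold lower in placode cells. The share of Ctrl placode cells with *Mki67* or *Top2a* was 62.7% at full depth. The median log2 ratio of the keratins was -1.04 when the rule followed thinning and -0.57 without *Mki67* or *Top2a* cells. The suprabasal list was at -0.29 with at least 2500 genes and 0.20 without those cells, the Notch list at 0.26 and the WNT-low follicle list at -0.51 without them.

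Of 310 listed and named genes, 157 had alternatives on both sides of 0, most of them genes within 1.5-fold. Among genes past 1.5-fold, the direction turned in 6. With the rule applied after thinning, the log2 ratio was 0.36 for *Axin1* and -0.18 for *Smad7*. Without *Mki67* or *Top2a* cells it was -0.13 for *Cdca2* and 0.20 for each of *Myh9*, *Prim1* and *Zfp36*. The ratio of *Tgfb2* to all other cells in cKO was -0.17 on the log2 scale. The cause was not tested. Among the genes the text turns on, the log2 ratio over 11 alternatives was -1.80 to -0.91 for *Krt15*, -1.50 to -0.34 for *Ptch1*, 0.65 to 0.93 for *Sp5* and 1.10 to 2.29 for *Socs2*, while *Shh* ranged from -0.24 to 0.56 and *Dkk4* from -0.44 to 0.22.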

Other observations

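Some secreted WNT inhibitors lay below the count minimum and were chosen after their values were seen. *Wif1* had 31 UMIs in 15 Ctrl placode cells and 2 UMIs in 2 cKO placode cells, a ratio of 0.061 (0.0070 to 0.24), and it was at 114 and 75.5 CPM in Shh tip cells. *Notum*, an enzyme that inactivates WNT ligands, had 17 UMIs in 12 Ctrl and 29 UMIs in 17 cKO placode cells, and was 72.5-fold (21.0 to 386) and 106-fold (26.8 to 915) above its basal level. *Sfrp2*, with 9 and 11 UMIs, was 12.8-fold (4.50 to 36.4) and 20.1-fold (5.95 to 86.4) above it. Neither *Dkk1* nor *Dkk2* had a UMI in the placode cells.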
